A study of Equus caballus with 8 samples.

Results

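Reelin, its receptors and its adaptor were taken as 4 genes named by role: RELN, which encodes the secreted ligand, VLDLR and LRP8, which encode its receptors, and DAB1, which encodes the adaptor inside the cell. Of these, 3 genes (RELN, VLDLR and LRP8) were found by symbol among the 15266 named genes of the table, and all 3 were among the 14907 genes with enough reads to be tested. DAB1 was not analysed here. RELN was selected on its increase after TGF-β2, which was among the largest in these data, so its change is described without a test. VLDLR and LRP8 were included for their role as receptors.

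The cells were mesenchymal stem cells of the bone marrow (BM-MSCs), plastic-adherent stromal cells grown out from the marrow of 4 horses, labelled D, J, L and W. Marrow from each horse was divided between an untreated culture, in medium with serum and basic fibroblast growth factor, and a culture that also received 1 ng/ml human recombinant TGF-β2 until RNA was taken at passage 3 or 4. This gave 4 untreated and 4 TGF-β2-treated poly(A) RNA libraries, matched by horse, with 39198342 to 57256652 reads counted per library. Each culture was a population of primary cells from a single animal, and the passage of each library is not given in the labels.

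Reelin is a large extracellular glycoprotein that is best known from the developing brain, where it is released by Cajal-Retzius cells and positions migrating neurons. It binds the lipoprotein receptors VLDLR and LRP8 (also called ApoER2), which bring about phosphorylation of DAB1 by the Src-family kinases FYN and SRC. Phosphorylated DAB1 then recruits CRK proteins and phosphoinositide 3-kinase and is removed by a ubiquitin ligase built on CUL5. Outside the brain, reelin is known from lymphatic endothelium, liver stellate cells and blood.

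RELN went from at most 36 reads in an untreated library to at least 2211 in a treated library. In untreated cells it had 14.8 normalized counts in horse D, 24.2 in J, 4.71 in L and 8.12 in W, where a normalized count is the number of reads of a gene divided by a size factor for the library. In treated cells the values were 3888 in horse D, 6058 in J, 2542 in L and 11257 in W. The groups were far apart, and the lowest treated library held 105 times the normalized count of the highest untreated library.

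Behind the untreated values stood 17 reads in horse D, 36 in J, 5 in L and 8 in W, so the untreated level was measured with little precision. By the exact 95% Poisson interval, which covers counting error only, the level of RELN in untreated cells lay between 1.53 and 11.0 normalized counts in horse L, between 3.50 and 16.0 in W, between 8.62 and 23.7 in D and between 17.0 and 33.6 in J. Neighbours in this order could not be told apart at this depth, whereas the interval of J did not overlap those of L and W. The treated libraries held 2211 to 9370 reads of RELN, and their order, W above J above D above L, was clear of counting error at every step. Horse W, the highest treated library, was below horse J in untreated cells.

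**Figure D1:**
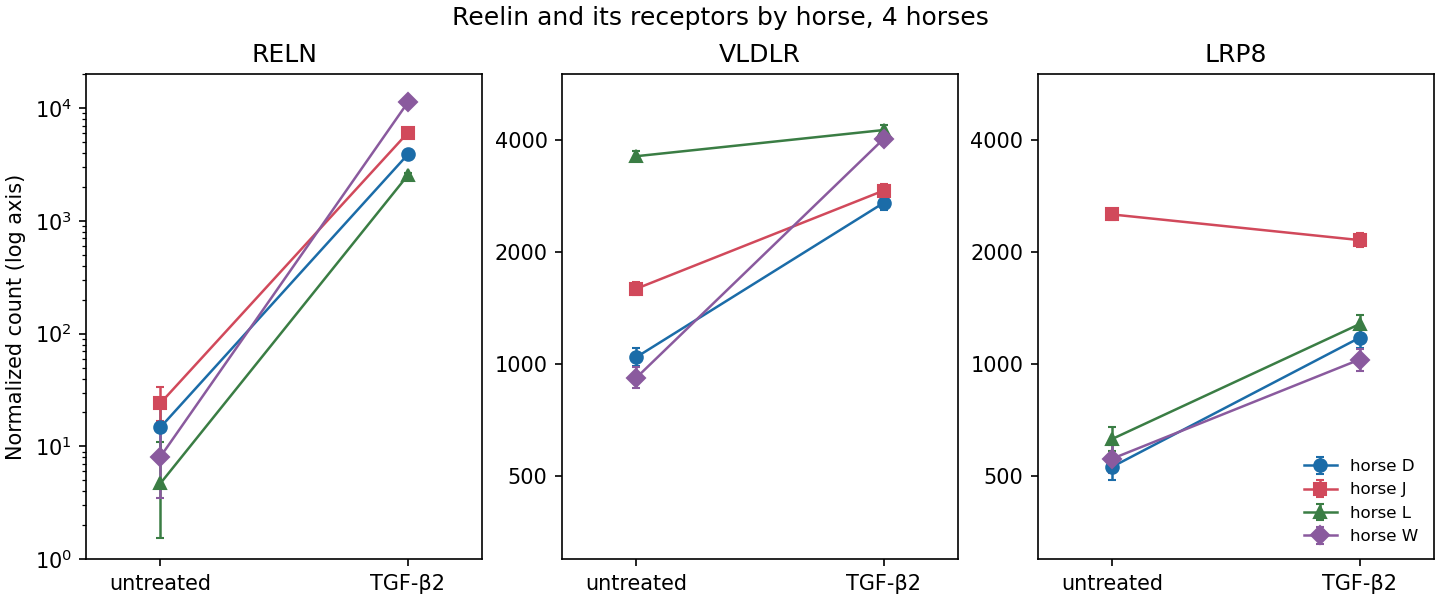
Normalized counts (log axes, with a different range for RELN) of RELN, VLDLR and LRP8 in the untreated and TGF-β2-treated libraries of horses D, J, L and W; lines join the libraries of a horse and bars are exact 95% Poisson intervals for counting error. RELN climbs steeply in all 4 horses, VLDLR starts high in horse L (3616), and LRP8 starts high in horse J (2523) and is higher after treatment in the other horses.

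The mean of RELN was 13.0 ± 8.60 normalized counts without and 5936 ± 3832 with TGF-β2 (SD, n = 4), a ratio of 458. On the scale of log2(normalized count + 1), the change was 7.94 in horse D, 7.91 in J, 8.80 in L and 10.27 in W. The estimate over horses was 8.73 with a standard error of 0.57, or 0.42 when the horse was included as a block. Horse W stood above the other horses, which differed from each other by less than 1 on this scale. The changes in W and L rest on 8 and 5 untreated reads, so their order is not clear of counting error. By the estimate over horses, on which RELN was selected, RELN stood at rank 2 of the 14907 genes, with IGFBP5 (8.94) above it and INHBE (7.97) and FGF21 (7.33) next below. Reads of RELN made up 0.112 to 0.629 per 1000000 counted reads in untreated libraries and 47.4 to 213 in treated ones.

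VLDLR, the receptor that also takes up triglyceride-rich lipoproteins, had 1045 normalized counts in untreated cells of horse D, 1595 in J, 3616 in L and 920 in W. After treatment it had 2711 in horse D, 2925 in J, 4251 in L and 4026 in W. All 4 horses had more VLDLR after treatment, but untreated horse L lay above treated horses D and J, so the groups overlapped. The treated values were also closer together: the highest untreated library was 3.93-fold above the lowest, against 1.57-fold among treated libraries. Among all genes tested, 26.3% were higher in all 4 horses.

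The log2 change of VLDLR was 2.13 in horse W, 1.37 in D, 0.87 in J and 0.23 in L, from the horse with the lowest untreated level to the horse with the highest. The untreated level is subtracted in each change, so this order is not a separate result. Over horses the log2 fold change was 1.15 (standard error 0.41, 95% interval 0.22 to 2.08). Its limma adjusted p, adjusted over all genes tested, was 0.0751 without the horse in the model and 0.0376 with the horse as a block, so with all 4 horses the limma call of VLDLR as higher needed the block. A gene was called when the adjusted p was under 0.05 and the log2 fold change over 1 in size. By this rule 5.59% of the genes tested were called higher without the block and 6.83% with it. With horse L left out, VLDLR was also called without the block (log2 fold change 1.46, limma adjusted p 0.0179). Of the fits with the block, those without horse D (1.08, limma adjusted p 0.138) or without horse W (0.83, 0.103) did not call it. In horse L the direction depended on the scaling, since VLDLR made up 86.1 of 1000000 counted reads before and 79.3 after treatment.

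The untreated library of horse L also had the most reads of CSF1R and SPI1, which are active in macrophages and their precursors, with 147 and 52.8 normalized counts. In the untreated libraries of the other horses CSF1R ran from 1.35 to 62.9 and SPI1 from 0.870 to 25.4. Over the 5 haematopoietic markers analysed, the summed level was 193 to 351 normalized counts in untreated and 151 to 244 in treated libraries, with the highest sum in untreated horse L. In bulk RNA, a change in the number of cells of a kind and a change in RNA per cell cannot be told apart, and the part of such cells in the VLDLR level of horse L was not tested.

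LRP8, the receptor that in the brain also acts at synapses, had 531 normalized counts in untreated cells of horse D, 2523 in J, 630 in L and 558 in W. The treated libraries had 1178 in horse D, 2154 in J, 1282 in L and 1030 in W. Untreated horse J was the highest of all 8 libraries. In the other three horses LRP8 was higher after treatment, with log2 changes of 1.15 in D, 1.02 in L and 0.88 in W, whereas in J the change was -0.23. The highest library was 4.75-fold above the lowest in untreated and 2.09-fold in treated cells.

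For LRP8 the log2 fold change over the 4 horses was 0.71 (standard error 0.50, 95% interval -0.44 to 1.85). The limma adjusted p was 0.349 without and 0.0793 with the block. It was called in neither fit. DESeq2 with the horse in the model gave an adjusted p of 0.0305 at a log2 fold change of 0.71, under the fold change limit. The limma interval without the block takes in both no change and an increase of more than 1 on the log2 scale. With the block the interval was 0.10 to 1.32. Without horse J the log2 fold change of LRP8 was 1.02, with a limma adjusted p of 0.00451, or 0.00306 with the block, so the call depends on horse J. The untreated library of horse J had 112 normalized counts of CD3E, a T cell gene, and 110 of PTPRC, which encodes the leukocyte antigen CD45. CD3E had 16.2 in untreated horse W and no read in the other 6 libraries. The highest level of PTPRC in any other library was 41.5, in untreated horse L. The part of such cells in the LRP8 level of horse J was not tested.

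**Figure D2:**
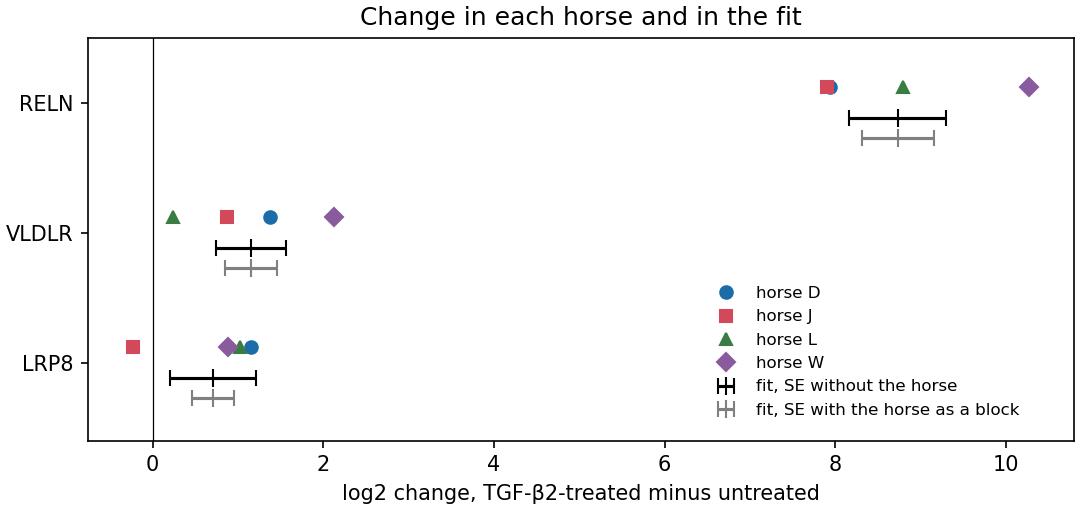
Log2 change from untreated to TGF-β2-treated cells for RELN, VLDLR and LRP8; coloured markers are single horses, and the vertical ticks with bars are the limma estimate and its standard error without (black) and with (grey) the horse as a block. RELN lies between 7.91 and 10.27, VLDLR between 0.23 and 2.13, and LRP8 at -0.23 in horse J and between 0.88 and 1.15 in the other horses.

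Set among all genes tested, 99.99% had a lower log2 fold change than RELN, 93.4% a lower one than VLDLR and 87.9% a lower one than LRP8. The median over all genes was 0.0055. When each library was scaled to its total of counted reads this median moved to -0.30. The estimates were then 8.43 for RELN, 0.84 for VLDLR and 0.39 for LRP8, and those of the receptors stayed positive. The same scaling gave 587 genes called higher and 1538 lower in place of 834 and 875. Longer transcripts give more reads and transcript lengths were not used here, so levels are not compared between the ligand and its receptors.

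**Figure D3:**
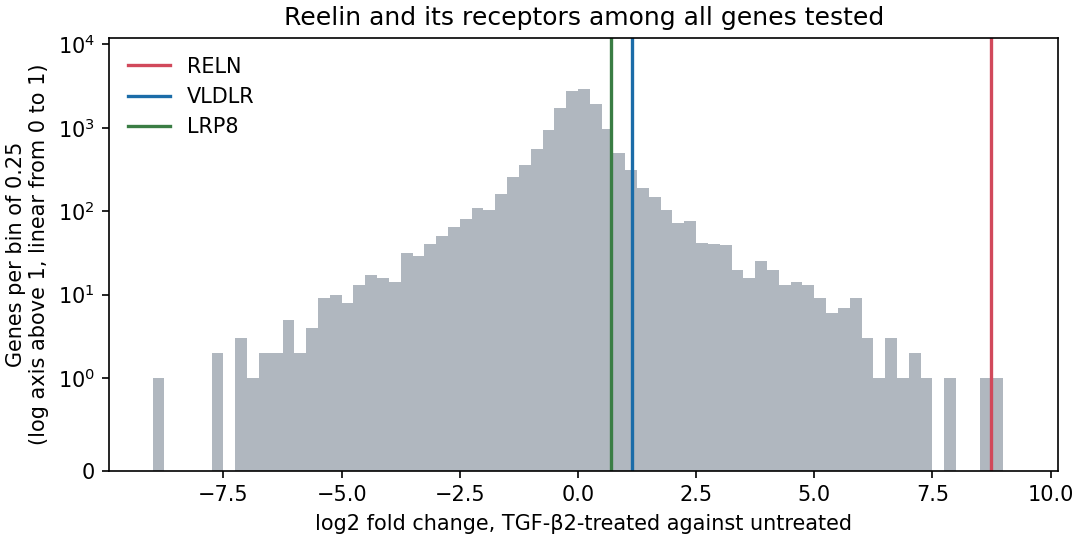
Histogram of the log2 fold changes of the 14907 genes tested, in bins of 0.25 (vertical axis logarithmic above 1 gene), with the estimates for RELN (8.73), VLDLR (1.15) and LRP8 (0.71) as vertical lines. RELN lies at the far right end, where a bin holds at most 1 gene, while both receptors lie on the right shoulder of the main body of genes.

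Of the 8 libraries' patterns on the log2(normalized count + 1) scale, the genes most like RELN by Pearson correlation were SFRP5 (0.991), RPN2 (0.989), OAT (0.988), CCDC149 (0.985) and LY6G5B (0.983). In each of these genes every treated library was above every untreated one, but by a far smaller fold than in RELN. This separation largely follows from choosing the genes by their likeness to RELN, so it is not a separate result. The groups did not overlap in 27.8% of all genes tested. SFRP5, a secreted inhibitor of Wnt signalling, ran from 5.65 to 8.70 normalized counts in untreated and from 23.8 to 34.3 in treated libraries. OAT, the mitochondrial ornithine aminotransferase, ran from 8493 to 13571 and from 28324 to 33266. SFRP5 stayed under the 10 normalized counts of the filter in every untreated library, so it was tested because of its treated level. The genes most like VLDLR included SAMHD1 (0.978), SNX11 (0.9754), LOC111769974 (0.971) and LOC100064310 (0.9703). LRP8 was most like SF3B3 (0.989), SLC35A4 (0.981), RER1 (0.976), ZC3H18 (0.974) and DDX1 (0.973). Between members, the correlation over the 8 libraries was 0.65 for RELN and VLDLR, 0.50 for RELN and LRP8 and 0.34 for the receptors. The genes named above were picked as the highest of all genes tested, so their values cannot be set against those of fixed pairs. All of these correlations share the 8 libraries and the contrast between untreated and treated cells, and they are given as descriptions.

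Levels of genes that define mesenchymal stem cells and other cell types known to make reelin were examined in the same libraries. CD44 had 10325 to 21687 normalized counts over the 8 libraries, ENG (CD105) 5881 to 10761, NT5E (CD73) 1609 to 3574 and THY1 (CD90) 7344 to 199815. THY1 was called lower in treated cells (log2 fold change -2.21, limma adjusted p 0.0494, or 0.00203 with the block). PTPRC and ITGAL, which encode leukocyte antigens that these cells should lack, had at most 110 and 53.9 normalized counts.

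Of 6 lymphatic endothelial markers, 3 were analysed: PROX1 had 17.9 to 76.1 normalized counts over all libraries, LYVE1 9.43 to 39.6 and CDH5 6.09 to 23.8. Their summed level was 73.1 to 98.9 in untreated and 60.7 to 119 in treated libraries. The part of such cells in the RELN level was not tested. LYVE1 was called higher, with a log2 fold change of 1.11 (limma adjusted p 0.0476), although its groups overlapped. PROX1 was lower in all 4 horses, as were 25.6% of all genes tested. It was not called (log2 fold change -0.77, limma adjusted p 0.238, or 0.125 with the block). CDH5 was not called either (log2 fold change 0.52, limma adjusted p 0.346, or 0.264 with the block).

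Of 10 neuronal and Cajal-Retzius markers, 4 were analysed. TUBB3, a neuronal tubulin that other cultured cells also express, rose from 1724 to 4243 normalized counts in untreated to 12177 to 22764 in treated libraries (log2 fold change 2.502, limma adjusted p 0.00216). CALB2 (calretinin), SYP (synaptophysin) and TP73, which are closer to defining such cells, had at most 14.3, 7.21 and 28.6 normalized counts in treated libraries. With the horse as a block CALB2 was called lower (log2 fold change -2.04, limma adjusted p 0.00837, or 0.124 without the block). The summed level of the list, 1798 to 4362 in untreated and 12208 to 22803 in treated libraries, was nearly all TUBB3.

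The other genes around reelin were followed in 9 lists by role, with 77 of 89 genes analysed. Of the 77, 7 were called higher and 7 lower without the block, against 5.59% and 5.87% of all genes tested, and 8 were higher and 9 lower with the block, against 6.83% and 7.31%. The groups did not overlap in 26 of the 77, against 27.8% of all genes tested. The median log2 fold change of the 77 genes was -0.067, against 0.0055 over all genes. With horse D left out 3 were called higher and 2 lower, against 364 and 354 of the 14907 genes tested. With horse W left out 4 and 2 were called, against 392 and 403. Without horse L, 7 were called higher and 4 lower, against 667 and 633. Scaled to total reads, 5 were called higher and 10 lower, against 587 and 1538. The main fit with all 4 horses called 834 of all genes tested higher and 875 lower. Fewer of all genes tested were thus called without horse D, L or W, so a call lost in these fits is not particular to the gene.

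**Figure D4:**
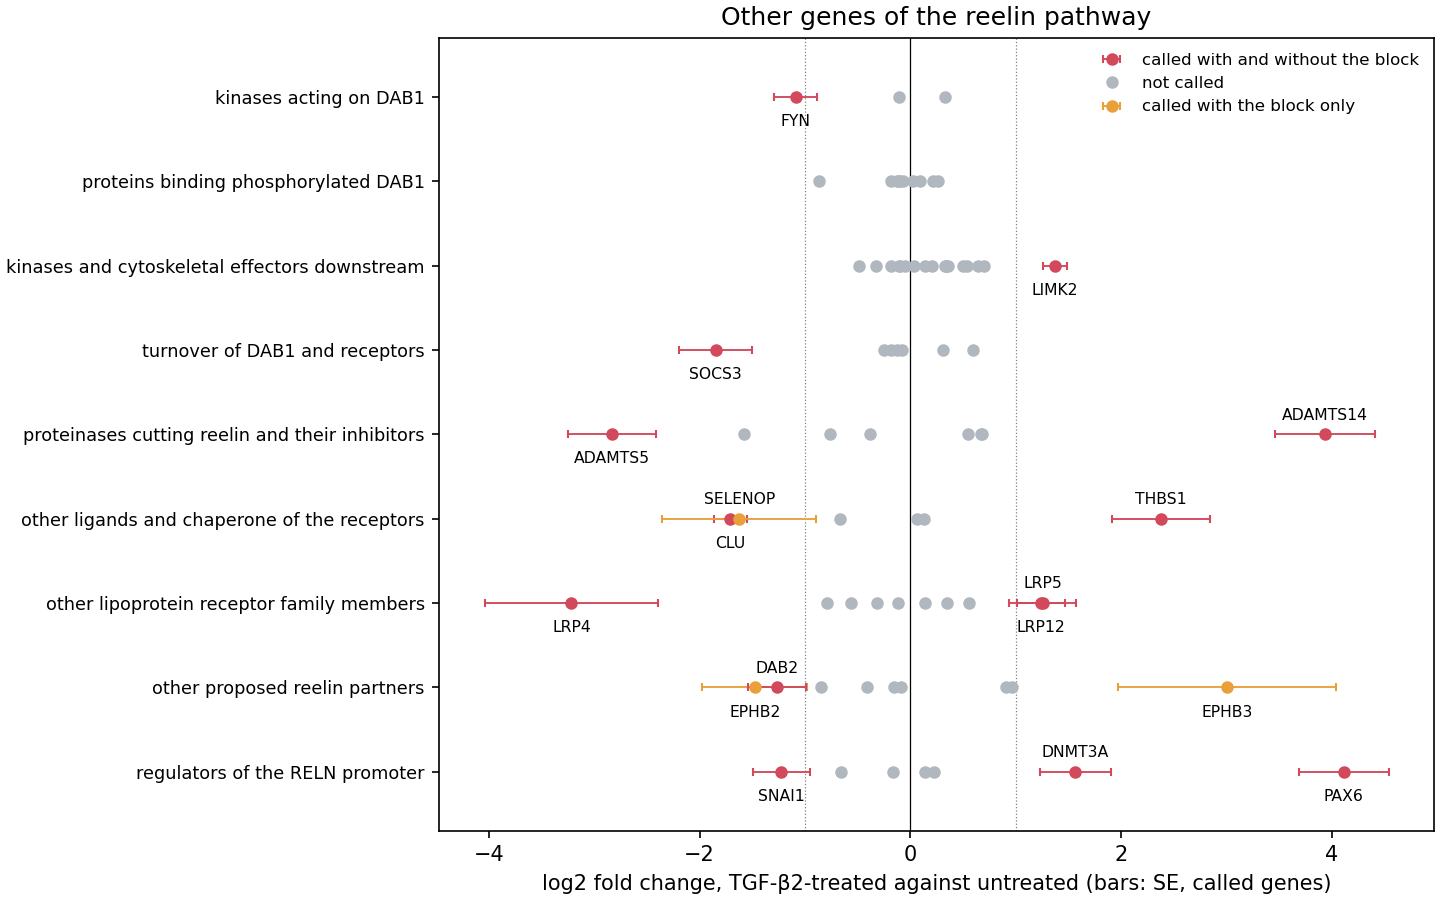
Log2 fold change of the 77 other pathway genes analysed, in 9 lists by role; red genes were called in both fits and orange genes in the blocked fit only, both with standard errors, and grey genes were not called. Dotted lines mark a log2 fold change of 1 in either direction; the largest changes are PAX6 (4.11) and ADAMTS14 (3.94) on the right and LRP4 (-3.22) and ADAMTS5 (-2.83) on the left.

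Among the kinases that phosphorylate DAB1, FYN fell and the others did not pass the test. FYN had 3879 to 5204 normalized counts in untreated and 1503 to 2877 in treated cells, without overlap, and differed by -1.09 ± 0.20 (standard error) on the log2 scale (limma adjusted p 0.00827, or 0.0110 with the block). Of all genes tested, 27.8% had groups without overlap in either direction. FYN was lower in all 4 horses, as were 25.6% of all genes tested. Fits without horse D, L or W no longer called it, with limma adjusted p of at most 0.0742 and log2 fold changes from -1.31 to -0.97 over the 4 fits that each left out a horse. SRC had a log2 fold change of 0.33 and YES1 of -0.11, with limma adjusted p of 0.367 and 0.723, or 0.0788 and 0.519 with the block.

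None of the 10 analysed genes in the list for proteins binding phosphorylated DAB1 was called, with log2 fold changes from -0.87 to 0.26. Among all genes tested 11.5% were called in either direction, and a list of 10 genes is too short to compare with that share. This list also takes in RAPGEF1, RAP1A and RAP1B, which act downstream of the bound proteins. The adaptors CRK and CRKL had values of -0.13 and -0.067, and PAFAH1B1, which encodes the dynein regulator LIS1, had -0.11, with limma adjusted p of 0.276, 0.632 and 0.558. With the block the limma adjusted p was 0.237, 0.601 and 0.437. Of 17 kinases and cytoskeletal effectors further downstream, LIMK2 was called, or 5.88% of the list against 11.5% of all genes tested. LIMK2, which inactivates the actin-severing protein cofilin, rose from 2035 ± 261 to 5252 ± 342 normalized counts (SD, n = 4), and its log2 fold change was 1.37 (limma adjusted p 0.000349).

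Of 7 genes for turnover of DAB1 or the receptors, SOCS3 was called, and it was lower. This was 14.3% of a short list, against 11.5% of all genes tested in either direction. SOCS3, a feedback inhibitor of cytokine signalling that can serve as an adaptor for CUL5, went from 6984 ± 1711 normalized counts to 2070 ± 1015 (SD, n = 4). Its log2 fold change was -1.85 (limma adjusted p 0.00789). It was not called without horse D or W, where the limma adjusted p reached 0.0669. CUL5 had 1222 to 1423 normalized counts in untreated and 1076 to 1170 in treated cells, which did not overlap, as in 27.8% of all genes tested. Its log2 fold change was only -0.25 (limma adjusted p 0.0821, or 0.0915 with the block). MYLIP, the ubiquitin ligase that sends VLDLR and LRP8 to degradation, differed by -0.13 ± 0.43 (standard error) on the log2 scale (limma adjusted p 0.868, or 0.838 with the block).

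Among 8 analysed proteinases and inhibitors, members moved in both directions. ADAMTS5, an aggrecanase that can cut reelin, fell from 7374 ± 3171 normalized counts to 1077 ± 534 (SD, n = 4). Its log2 fold change was -2.83 (limma adjusted p 0.00330). ADAMTS14, a procollagen proteinase closely related to ADAMTS2 and ADAMTS3, rose from 28.0 ± 14.8 to 390 ± 85.0 (log2 fold change 3.94, limma adjusted p 0.00166). PLAT, the tissue plasminogen activator, which can cut reelin, differed by -0.76 ± 0.50 (standard error) on the log2 scale. It was not called (limma adjusted p 0.307, or 0.159 with the block). ADAMTS3 was not analysed here.

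Other ligands of the receptors included THBS1 (thrombospondin-1), which rose from 65413 ± 31694 normalized counts to 346843 ± 168223 (SD, n = 4). Its log2 fold change was 2.38 (limma adjusted p 0.00976), and it was not called without horse D or L. CLU, the chaperone clusterin, fell from 122318 ± 20105 normalized counts to 37010 ± 721 (log2 fold change -1.71, limma adjusted p 0.000634). SELENOP, the selenium carrier that LRP8 takes up in testis and brain, had a log2 fold change of -1.62, with a limma adjusted p of 0.147, or 0.0388 and a call as lower with the block. Without the block it was also called by DESeq2 (-1.80, adjusted p 0.0173) and by limma with horse J left out (-2.11, 0.0259).

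In the wider lipoprotein receptor family, 2 of 10 genes were called higher and 1 lower, against 5.59% and 5.87% of all genes tested. LRP5, a co-receptor for Wnt proteins, and LRP12 had log2 fold changes of 1.26 and 1.24, with limma adjusted p of 0.02504 and 0.00772. Neither was called after scaling to total reads, LRP5 was lost without horse D or W, and LRP12 without horse D, J or W. LRP4, the agrin receptor, went from 2538 ± 1067 normalized counts to 474 ± 627 (SD, n = 4), a log2 difference of -3.22 (limma adjusted p 0.0264). It was not lower in horse J, whose treated library held 1405, and it was not called without horse D, L or W, where the limma adjusted p reached 0.149, or by edgeR over all 4 horses (-2.42, adjusted p 0.0826). LRP1, a large endocytic receptor, had a log2 fold change of 0.35 (limma adjusted p 0.672, or 0.352 with the block).

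Of the other proteins proposed to bind reelin or to act with its receptors, DAB2, an adaptor of the same family as DAB1, was called lower. It had 3675 to 5237 normalized counts in untreated and 1108 to 2810 in treated cells (log2 fold change -1.26, limma adjusted p 0.0148), and it was not called without horse D, J or W. EPHB3 and EPHB2, receptors for ephrins, were called by limma over all 4 horses only with the block, EPHB3 higher (log2 fold change 3.01, limma adjusted p 0.0121 against 0.0696) and EPHB2 lower (-1.48, 0.0361 against 0.0652). Without the block, EPHB3 was called when horse L was left out (3.68, limma adjusted p 0.0308). EPHB2 was called without horse J (-1.88, limma adjusted p 0.0264), after scaling to total reads (-1.79, 0.0210) and by DESeq2 without the horse (-1.60, adjusted p 0.00663). ITGB1, the integrin chain of CD29, missed the fold change limit at 0.91 (limma adjusted p 0.0123, or 0.0159 with the block). Without horse J the log2 fold change was 1.06 and ITGB1 was called.

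Of 7 analysed regulators known for action at the RELN promoter, 3 were called, PAX6 and DNMT3A higher and SNAI1 lower. Among all genes tested 11.5% were called in either direction, and a list of 7 genes is too short to compare with that share. PAX6, a transcription factor of the developing forebrain and eye, had 1.35 to 6.09 normalized counts in untreated and 60.9 to 124 in treated cells (log2 fold change 4.11, limma adjusted p 0.000989). No untreated library reached the 10 normalized counts of the filter, so PAX6 was tested because of its treated level. With no filter on low genes the limma adjusted p was 0.00114. DNMT3A, a DNA methyltransferase, had a log2 fold change of 1.57 (limma adjusted p 0.0137) and was lost without horse D or W. SNAI1, a repressor, went from 5457 ± 1103 normalized counts to 2405 ± 836 (SD, n = 4). It had a log2 difference of -1.22 (limma adjusted p 0.0150) and was lost without horse D, L or W. DNMT1, the methyltransferase best known from silencing of RELN, had a log2 fold change of 0.23, or -0.083 after scaling to total reads. It was not called (limma adjusted p 0.503, or 0.155 with the block).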

How the data were processed

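Matched cultures of 4 horses, untreated or given TGF-β2, were sequenced with paired ends. Per the submitters' processing notes and the study's methods, the authors used Trimmomatic 0.36 for trimming, STAR 2.5.2b for alignment to EquCab 3.0, featureCounts (Subread 1.5.2) for unique hits per gene, and DESeq2. They deposited a signal, normalized counts, for 15267 rows. A row without a name, at most 0.0531% of the reads of a library, was left out. Every value was a whole multiple of the library's smallest value (100% within 0.001 reads), so reads could be recovered. Unique counting leaves out reads shared by near-identical copies.

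Genes that reached 10 normalized counts in 4 or more libraries were tested on log2(normalized count + 1) by limma 3.58.1 with a trend, in R 4.3.3. The log scale understates changes of low genes. Adjusted p-values are Benjamini-Hochberg. The study names no donor term, so the main model had none. Libraries of the same horse, paired by the horse letter, deviated together (correlation 0.386 to 0.609), and p-values and intervals without the block leave this pairing out. The blocked value is given where it changed a call and beside the adjusted p of named genes that were not called. Alternatives were other pseudocounts (0.5, 5), filters (none, 50) and scalings (total, TMM), DESeq2 1.42.0 and edgeR 4.0.16 on recovered reads, and each horse left out. DESeq2 called 2051 genes, or 2343 with the horse, and edgeR 1680. Leaving out horses with the block was added after the values were seen. Scripts were tested on simulated data.

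The members and lists were chosen with earlier results of these data known. Named were the members, listed genes called with or without the block, some central pathway genes whatever they did, the 5 genes most correlated with each member, and neighbours of RELN by fold change. Markers were chosen by cell type. Some genes are not reported here. Coordinates and sequences are not used here.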

Additional observations from a re-analysis of the deposited data

Results flagged for a closer look

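In 10 of 93 sets of 4 values (31 genes, each with its untreated levels, treated levels and log2 changes by horse), a single horse stood apart from the rest by Dixon's test at the 95% level, which chance does in about 5% of sets. For the receptors this held once, for LRP8 in untreated cells, where horse J had 2523 normalized counts and the others 531 to 630.

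Among levels of the other genes, horse D was high for PLAT in untreated cells (5421 normalized counts) and for PAX6 in treated cells (124). Horse L was high in treated cells for PAFAH1B1 (8545) and LRP1 (254438) and in untreated cells for EPHB3 (286). Horse J was high for LRP4 in treated cells (1405). Among log2 changes, horse J was low for ITGB1 (0.47), horse L was low for EPHB3 (0.98), and horse W was high for CRK (-0.048).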

How the results depend on the processing

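The log2 fold change of RELN over the 14 alternatives ran from 8.22 (without horse W) to 9.004 (without horse J), and was 8.27 with a pseudocount of 5. RELN was selected on the size of this increase, so its kept direction is not a separate result. VLDLR was higher under all alternatives, from 0.83 to 1.46 when horses were left out, and was called by DESeq2 with the horse as a replicate block (1.15, adjusted p 0.00173) and by limma with the block (1.15), also without horse J (1.25) or L (1.46), but not by DESeq2 or edgeR without the horse. LRP8 ranged from 0.56 to 1.02 when horses were left out, and no alternative with all 4 horses called it, although DESeq2 with the block missed only the fold change limit (0.71, adjusted p 0.0305). Leaving out horses moved the pathway genes called higher between 3 and 9 and those called lower between 2 and 11, with fewer libraries in each such fit. Over the same fits, 364 to 1143 of all genes tested were called higher and 354 to 1299 lower. Of the 14 pathway genes called, 5 stayed called in all 14 alternatives (LIMK2, ADAMTS5, ADAMTS14, CLU and PAX6, the last being under the filter in every untreated library). Small values turned for MYLIP without horse D (0.20) or W (0.085) and for DNMT1 after scaling to total reads (-0.083). The number of reads limits RELN in untreated cells, where a floor of 3 reads is 2.02 to 3.04 normalized counts.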
